A study of Mus musculus with 75 samples.

Results

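The 11 OHC-like cells of adult cochleae in which supporting cells (SCs) had been made to express Atoh1 and Ikzf2 were compared with 17 wild-type outer hair cells (WT_P30 OHCs). These 28 cells were all those carrying either label among the 75 single cells of the series. They were chosen by sample label alone and no measured value was used. Each library is the RNA of 1 cell picked by hand under fluorescence. The OHC-like cells came at P60 from mice with the transgenic alleles Rosa26 CAG-LSL-Ikzf2/+ and CAG-LSL-Atoh1+, the Cre line Fgfr3-iCreER+ and the knock-in Slc26a5 DTR/+. In these mice tamoxifen turns on both transgenes in Fgfr3-expressing SCs, and diphtheria toxin, given afterwards, kills OHCs that make its receptor from the Slc26a5 locus. The Ikzf2 transgene carries Tdtomato, and tamoxifen was also used to activate Cre in the control mice. The WT_P30 OHCs came at P30 from Slc26a5 CreER/+; Ai9/+ mice, so these control OHCs also carry 1 modified Slc26a5 allele. The 16 WT_P60 SCs of Fgfr3-iCreER+; Ai9/+ mice, mostly pillar and Deiters cells and without either transgene, are given beside them as the level in the cells of origin. Founders of the Rosa26 CAG-LSL-Ikzf2/+ and Slc26a5 DTR/+ lines were crossed with C57BL/6 mice, and the study's methods give no background for the other lines used here. The study called a Tdtomato+ cell OHC-like when it also had Myo7a and Slc26a5 RNA, so that detection of these 2 genes in the 11 cells is a matter of definition.

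OHCs are the electromotile sensory cells of the organ of Corti. Their lateral wall is packed with Prestin, the product of Slc26a5, which shortens and lengthens the cell with membrane voltage, and their hair bundle opens mechanotransduction (MET) channels when it is deflected. In the embryo Atoh1 starts hair cell differentiation, and Pou4f3 and Gfi1 act after it. Ikzf2 (Helios), expressed from neonatal ages, promotes the OHC programme. In the adult mammalian cochlea SCs do not replace lost OHCs.

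The total count on genes was 6382171 to 20254735 reads in the OHC-like cells and 4821150 to 7846560 in the WT_P30 OHCs. With every cell thinned to 4821150 reads, the OHC-like cells had 4910.0 to 12022 genes with at least 1 read (median 9293), the WT_P30 OHCs 4440.0 to 7004 (median 5556) and the WT_P60 SCs 6565 to 8585 (median 7726). The ranges overlap, because OHC-like cell 4 lies low. Across pairs of cells, the median correlation of log2(CPM + 1) was 0.422 between OHC-like cells, 0.441 between WT_P30 OHCs and 0.227 between a cell of one group and a cell of the other. Such correlations are across genes, which are not independent replicates. The OHC-like cells fell in 4 library series, called A (cell 1), B (cells 2 to 6), D (cells 7 to 9) and E (cells 10 and 11) here, and all 17 WT_P30 OHCs in another, F. The series come from the sample annotation used here. Neither the sample titles and count column names nor the study's methods describe them, so whether a series is a sequencing run is not known. Only the mice of the OHC-like cells received diphtheria toxin. Genotype, toxin, age at tamoxifen, age at sampling (P60 against P30) and library series all differ between the 2 groups and cannot be told apart. No label names the mouse of a cell, so each group was treated as 1 sample, no test between groups was made and no p-value is given. In their place the level of each group, the spread over its cells and the overlap of the cells are given.

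**Figure D1:**
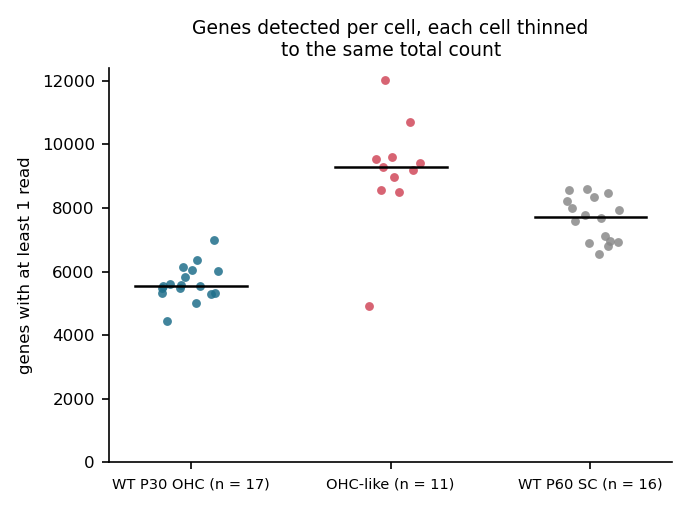
Number of genes with at least 1 read in each cell after thinning all cells to 4821150 reads. Each point is 1 cell, the line is the group median, and the medians are 5556 in WT_P30 OHCs, 9293 in OHC-like cells and 7726 in WT_P60 SCs.

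Levels are CPM, the count of a gene per 1e6 counts of all genes, computed from the reads summed over a group's cells and scaled with TMM factors. They carry an exact 95% Poisson interval, which covers counting error only. A gene was detected in a cell at 1 CPM or more. Of 55291 genes, 7860 had at least 10 CPM and were detected in at least 50% of the cells of 1 of the 2 groups. Of these, 1707 (21.7%) were higher in OHC-like cells, meaning a log2 ratio of group CPM + 1 above 2 (4-fold), and 391 (4.97%) were lower by the same measure. The remaining 5762 lay within the 4-fold range. The split of higher and lower depended on scaling. Higher genes made up 81.4% of those past the fold with TMM and 67.6% with DESeq2 size factors. The median log2 ratio of the genes that passed the filter was 0.71 with TMM (7860 genes) and 0.10 with DESeq2 (7760 genes). The shares 21.7% and 4.97% are the background for every count of genes below. A gene with no read in 1 group can pass the filter only through the other. At 10 CPM there it is already past the fold. The split of a list whose members are mostly off in 1 group is therefore partly fixed by the filter.

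Slc26a5 was the gene by which the OHC-like cells had been recognised, and it was present in all 11 of them, but at a lower level than in any WT_P30 OHC. Its level was 69.4 CPM (67.9 to 71.0) in OHC-like cells, with single cells at 16.2 to 180.5 CPM (median 57.2). In WT_P30 OHCs it was 1599 CPM (1592 to 1606), with single cells at 776 to 2453 CPM (median 1591). The highest OHC-like cell thus lay below the lowest OHC, and the group level was 23.0-fold lower (log2 ratio −4.51). WT_P60 SCs had 0.00860 CPM. The level was 32.8 CPM in the cell of series A, 50.3 in series B, 77.3 in series D and 106 CPM in series E. Both groups carry a modified Slc26a5 allele, and the part of the knock-ins in these counts was not tested. The gene lies on chr5:21810655-21865604 (GRCm38, minus strand).

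Kcna10, which encodes a voltage-gated potassium channel subunit of hair cells, was detected in 3 of the 11 OHC-like cells. Cell 9 had 39.3 CPM, cell 10 18.1 CPM and cell 11 121 CPM, and the other 8 were below 1 CPM. The WT_P30 OHCs all expressed it, at 111 to 3787 CPM (median 2216). The group levels were 18.8 CPM (18.0 to 19.7) and 2008 CPM (1999.6 to 2016), a 107-fold difference (log2 ratio −6.66), and only cell 11 reached the range of the OHCs. Without cell 11 the OHC-like level was 9.03 CPM and the log2 ratio −7.65. Kcna10 lies on chr3:107183056-107195721 (plus strand).

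Cdh1, the gene of the epithelial adhesion protein E-cadherin, had the opposite pattern. It was detected in 11 of the 11 OHC-like cells at 199.6 to 1064 CPM (median 357) and had no read in any of the 17 WT_P30 OHCs, which allows a level of up to 0.0303 CPM. Its group level of 378 CPM (375 to 382) was at least 869-fold higher, taking as the lower limit 3 reads in an OHC of median size, 0.436 CPM. The 4 library series had 505, 373, 290.1 and 551 CPM, and WT_P60 SCs 87.6 CPM. Cdh1 lies on chr8:106603351-106670246 (plus strand).

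The promoters of the 2 OHC genes are shown because both genes were lower while Atoh1, a factor that binds the E-box, was 5994 CPM in the OHC-like cells. They are RefSeq sequences on GRCm38.p6, 5′ to 3′ on the strand of the gene, from 250 bases before to 50 bases from the start of transcription. The window of Slc26a5 is chr5:21865555-21865854 (minus strand) and that of Kcna10 is chr3:107182893-107183192 (plus strand). Capitals mark CAGATG, its reverse complement CATCTG or the palindrome CAGCTG, searched on both strands.
Slc26a5: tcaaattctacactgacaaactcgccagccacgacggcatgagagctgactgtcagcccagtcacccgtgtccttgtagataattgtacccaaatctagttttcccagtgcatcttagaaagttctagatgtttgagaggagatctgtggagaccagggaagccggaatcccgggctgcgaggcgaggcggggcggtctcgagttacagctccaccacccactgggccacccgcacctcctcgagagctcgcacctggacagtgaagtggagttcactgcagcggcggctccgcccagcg
Kcna10: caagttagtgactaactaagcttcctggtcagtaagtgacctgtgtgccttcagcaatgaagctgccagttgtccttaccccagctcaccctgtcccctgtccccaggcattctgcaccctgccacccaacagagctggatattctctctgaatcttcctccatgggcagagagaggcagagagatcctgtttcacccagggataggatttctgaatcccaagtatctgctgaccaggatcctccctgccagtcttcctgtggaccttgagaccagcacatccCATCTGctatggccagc
Slc26a5 held none of these letters and Kcna10 held CATCTG once, beginning 34 bases from the start. At least 1 of them was present in 30.6% of the 32851 promoters of the same length. Other forms of the E-box, such as CACCTG in the Slc26a5 window, were not searched. The RefSeq start of Kcna10 differs from the GENCODE start given above. A match is a description of the letters and does not show binding.

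The other genes of mature OHC function were mostly lower too. Of the 12 genes in this list, all passed the filter, 9 were lower, 0 higher and the median log2 ratio was −4.42. Ocm, encoding oncomodulin, the abundant calcium buffer of OHCs, was absent or low in OHC-like cells (0 to 5644 CPM, median 288, detected in 8 of 11) and abundant in WT_P30 OHCs (8871 to 45183 CPM, median 26529.7). Its group level was 1111 against 26369 CPM, 23.7-fold lower with no overlap between the cells. Without cell 5, the highest OHC-like cell, the Ocm level was 676 CPM and the log2 ratio −5.28 instead of −4.57. Lmo7, a cuticular plate and junction protein, was 66.4 CPM (0 to 310.0) against 1551 CPM (459.9 to 3877), again with no overlap, and its log2 ratio of −4.52 was −5.14 without cell 11. Strip2 was 18.1-fold lower (65.1 against 1176 CPM), and Lbh, a transcriptional regulator, 28.5-fold lower (18.5 against 526 CPM). Strc, encoding stereocilin, which ties the OHC bundle to the tectorial membrane, was 8.18-fold lower (74.8 against 612 CPM). Its exons overlap those of Ckmt1 on the opposite strand, and the use of strand in the counting is not stated.

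Efferent synapses on OHCs work through a receptor of alpha9 and alpha10 subunits and the calcium-activated channel SK2. The 3 genes did not share a pattern. Chrna9 was 845 CPM in OHC-like cells (0 to 1926, detected in 10 of 11) against 576 CPM in WT_P30 OHCs (34.2 to 1043). Chrna10 was detected in 1 of the 11 OHC-like cells, cell 11, at 249.9 CPM, while the OHCs had 95.7 to 1080.1 CPM. The level of Chrna10 was 21.9 against 553 CPM, and without cell 11 it was 0. Kcnn2, which encodes SK2, was 15.3 against 325 CPM, 21.3-fold lower. Exons of Chrna10 and Kcnn2 overlap genes on the opposite strand.

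**Figure D2:**
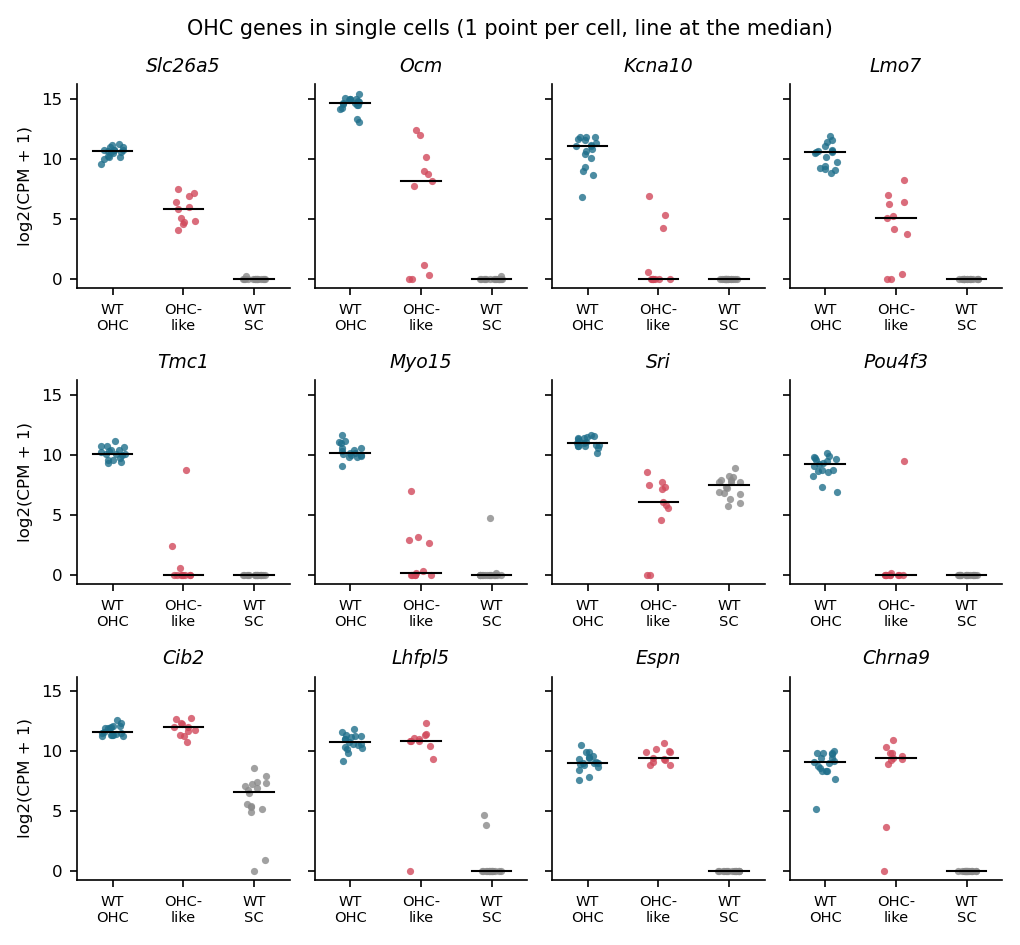
Level of 12 OHC genes as log2(CPM + 1) in 17 WT_P30 OHCs, 11 OHC-like cells and 16 WT_P60 SCs, 1 point per cell with a line at the median. The points of Slc26a5, Ocm, Lmo7, Tmc1, Myo15 and Sri do not overlap between OHCs and OHC-like cells, while those of Cib2, Lhfpl5, Espn and Chrna9 do.

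Among the 13 genes of the MET complex and tip link the picture was mixed. Of these 11 passed the filter, 3 were lower, 1 higher and 7 within the fold, with a median log2 ratio of −0.71. Tmc1, the pore-forming subunit of the mature MET channel, was at or near 0 in all OHC-like cells but cell 11. Cell 11 had 437 CPM, cell 2 had 4.18 CPM, and the 9 others were below 1 CPM, whereas the WT_P30 OHCs had 656 to 2329 CPM (median 1112). The level of Tmc1 was 38.5 against 1232 CPM (log2 ratio −4.96) with cell 11 and 0.316 CPM (log2 ratio −9.87) without it. Tmc2, the subunit of the developing channel, did not pass the filter, at 4.31 against 1.75 CPM. Tomt, needed to bring the channel to the bundle, was 15.6 against 74.3 CPM (log2 ratio −2.18, and −3.58 without cell 11). Clic5, a protein of the stereocilia base, was 72.6 against 316 CPM.

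The accessory subunits of the channel lay within the fold. Cib2 was 3967 CPM in OHC-like cells (1700.0 to 6944) and 3556 CPM in WT_P30 OHCs (2391 to 6255). Lhfpl5 was 2183 CPM (0 to 5125, detected in 10 of 11) and 1918 CPM (592 to 3707). Tmie was 87.6 and 139 CPM, and the tip link gene Pcdh15 was 83.6 and 77.2 CPM. The OHC-like cells and OHCs overlapped for these 4 genes. Cdh23, the other tip link gene, was 116 and 302 CPM (log2 ratio −1.38), detected in 7 of the 11 OHC-like cells and in 16 of 17 OHCs. Cib2, Tmie and Tomt each have exons overlapping an opposite-strand gene. Cib3, a paralog of Cib2, was the gene of the list that was higher, at 126 CPM (detected in 7 of 11) with no read in the OHCs, at least 288-fold. Loxhd1 was on in some cells and off in others, detected in 5 of the 11 OHC-like cells at up to 1057 CPM, and in 17 of 17 OHCs at 157 to 1183 CPM.

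Of 36 genes of the stereocilia and cuticular plate, 28 passed the filter, 14 were lower and 2 higher, with a median log2 ratio of −1.71. Myo15, the motor that carries proteins to stereocilia tips, was 12.5 CPM (0 to 124, detected in 4 of 11) against 1453 CPM (539 to 3362). It was 116-fold lower with no overlap, and its log2 ratio of −6.75 was −9.02 without cell 11. Fscn2, an actin-bundling protein of mature stereocilia, reached 1 CPM in 0 of 11 OHC-like cells and was 292 CPM in the OHCs, at least 916-fold lower, although 2 of the 17 OHCs also lacked it. Grxcr2, Grxcr1 and Ptprq, genes of hair bundle shape and of the shaft connectors, were each detected in cell 11 only, at 292, 305 and 158 CPM, against OHC levels of 964, 241 and 209.6 CPM. Without cell 11 their levels were 0.0509, 0.0102 and 0.0204 CPM. Elmod1, a regulator of small GTPases in the bundle, was 31.2 against 431 CPM, and 5.40 CPM without cell 11. Clrn1, 32.9-fold lower, encodes clarin-1, a membrane protein of stereocilia.

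Other bundle genes were present. Espn, encoding the actin-bundling protein espin, was 776 CPM (454 to 1652) against 623 CPM (187 to 1467). Myo7a was 779 CPM (52.5 to 4873) against 538 CPM (193 to 956), its detection being part of the classification. Myo6, the motor at the stereocilia base, was 1203 against 1673 CPM, and Triobp, the bundler of stereocilia rootlets, was 1086 against 648 CPM. Tprn, encoding taperin, a protein of the stereocilia base, was among the higher genes of the list, at 77.8 CPM against 0.0329 CPM.

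**Figure D3:**
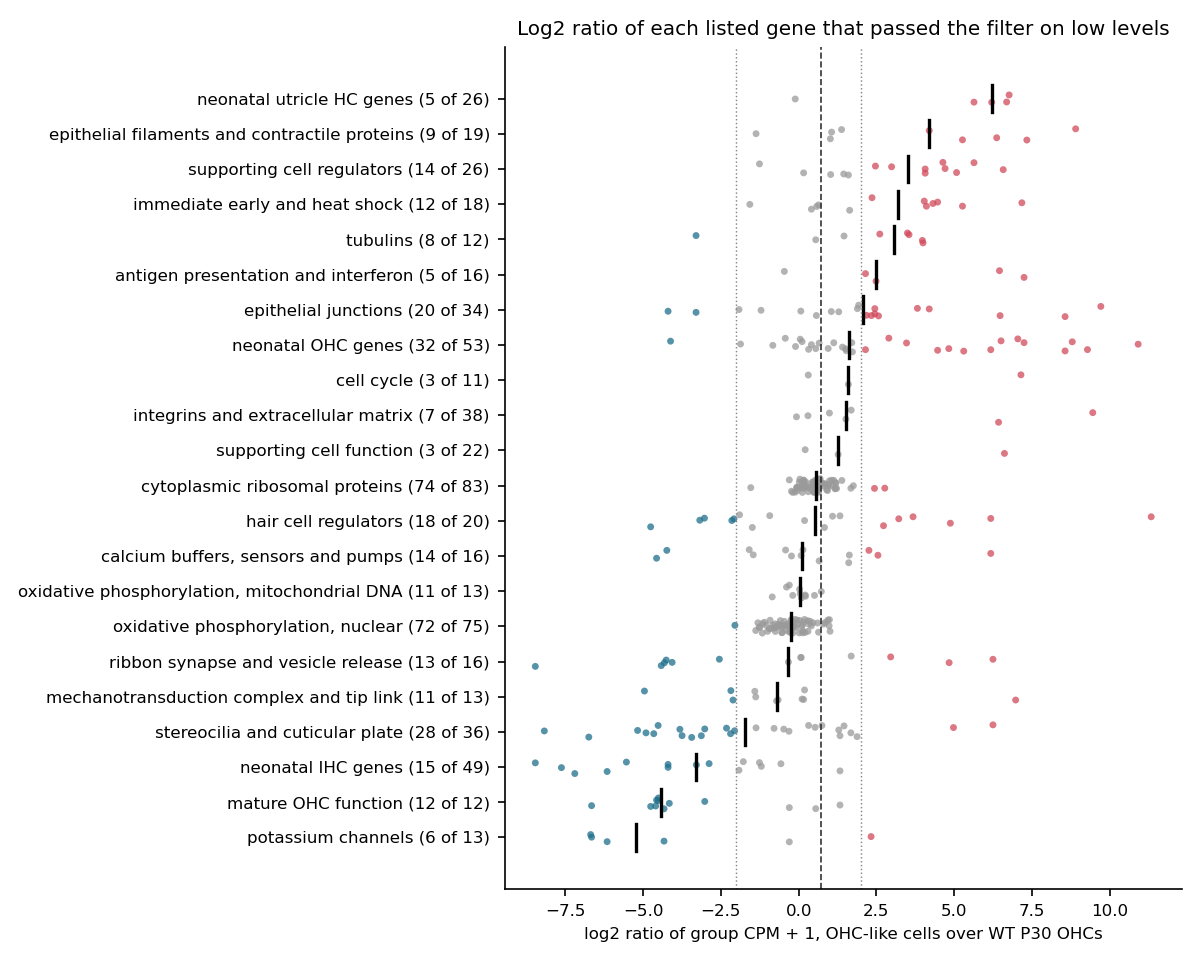
Log2 ratio of group CPM + 1, OHC-like cells over WT_P30 OHCs, for each gene that passed the filter in the lists other than cell type markers (1 point per gene, bar at the list median, numbers of genes passing and in the table in parentheses). The dotted lines mark log2 ratios of −2 and 2 and the dashed line the median of 7860 genes at 0.71. The medians run from −5.24 for potassium channels (6 of 13 genes passing) to 6.21 for neonatal utricle genes (5 of 26 genes passing).

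Potassium channel genes were few but far apart. Of 13 genes, 6 passed the filter, 4 were lower and 1 higher, and the median log2 ratio was −5.24. Kcna10 and Kcnn2, described above, are 2 of the 4. Kcnma1, which encodes the BK channel, was below 1 CPM in all 11 OHC-like cells and detected in 13 of 17 OHCs at a group level of 106 CPM, at least 333-fold. Kcnj13 was 0.910 against 136 CPM, with reads in cell 1 (14.2 CPM) and in none of the other 10 OHC-like cells. Kcnk1, a leak channel, was the higher one, at 424 CPM against 83.5 CPM and close to the 427 CPM of WT_P60 SCs.

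Of 16 genes of the ribbon synapse and vesicle release, 13 passed the filter, 6 were lower and 3 higher, and the median log2 ratio was −0.33. Otof, the calcium sensor of vesicle fusion, had 0.177 CPM in OHC-like cells and 416 CPM in WT_P30 OHCs, where it was detected in 14 of 17. Cacna1d, encoding the calcium channel of the synapse, was 34.3 against 703 CPM, and Cabp2, which modulates that channel, 51.3 against 1004 CPM. Without cell 11 these 2 levels were 14.9 and 20.0 CPM. Ctbp2, the locus of the ribbon protein Ribeye, was 3.86 against 80.8 CPM, and 1.77 CPM without cell 11. Erc2 was 6.29-fold lower, a call that ended without WT_P30 OHC 12 (log2 ratio −1.90). Rimbp2, like Erc2 a scaffold protein of the active zone, was at least 77.7-fold lower (0.204 against 24.7 CPM, detected in 11 of 17 OHCs). The 3 higher genes, a share of the 13 near the background of 21.7%, encode active zone scaffold proteins as well. Rims2 was 76.9 CPM in OHC-like cells (1.33 to 320.3, detected in all 11) and 0.0247 CPM in OHCs, with no overlap. Pclo was 136 against 16.6 CPM (log2 ratio 2.96, and 3.60 without WT_P30 OHC 3). Bsn was 49.3 against 0.757 CPM, and without OHC-like cell 4 it was 12.7 CPM. Its log2 ratio of 4.84 was 2.97 without that cell and 5.52 without WT_P30 OHC 16. The vesicle genes Snap25 (172 against 217 CPM) and Rab3a (338 against 319 CPM) lay within the fold.

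Of 16 calcium-handling genes, Ocm included, 14 passed the filter, 2 were lower (Ocm and Sri), 3 higher and 9 within the fold, a share of higher genes near the background of 21.7%, and the median was 0.11 with TMM and −0.51 with DESeq2. Sri, encoding the calcium-binding protein sorcin, was 117 CPM (0 to 385) against 2226 CPM (1188 to 3236), 19.0-fold lower with no overlap. Calm2, 1 of 3 calmodulin genes, was within the fold at 2194 against 6039 CPM, yet its cells did not overlap (86.7 to 3077 against 4043 to 9203 CPM). Calb2, encoding calretinin, was higher at 3012 CPM (744 to 8105) against 628 CPM (0.348 to 1640). Calb1 was 1381 against 445 CPM, and Pvalb 711 against 646 CPM.

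Genes that OHC-like cells kept at OHC levels were taken by a rule on levels, namely within 2-fold between the groups, at least 100 CPM and detected in every cell of both, and at least 16-fold above WT_P60 SCs. A total of 7 genes met it. Besides Cib2, Espn and Myo7a they included Selenow, a small selenoprotein (1810.1 against 3058 CPM), Calml4, a calmodulin-like protein (1082 against 1382 CPM), and Madd, an exchange factor of Rab3 (202 against 179.8 CPM). WT_P60 SCs had 43.6, 0 and 1.87 CPM of these 3. With DESeq2 size factors the log2 ratios of Cib2, Espn, Madd and Myo7a changed from above to below 0 (to −0.46, −0.30, −0.45 and −0.09), and these 4 stayed within the fold. Energy and translation genes also lay largely within it. Of 72 nuclear oxidative phosphorylation genes that passed the filter 71 were within the fold and 1 was lower (median −0.26). The 11 of the mitochondrial DNA that passed it were within the fold (median 0.05 with TMM and −0.57 with DESeq2), as were 72 of 74 cytoplasmic ribosomal protein genes, with 2 higher (median 0.55 with TMM and −0.06 with DESeq2).

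Transcription factors and other regulators of hair cells split into 6 higher, 5 lower and 7 within the fold of 18 that passed the filter (20 in the table, median 0.51 with TMM and −0.11 with DESeq2). Atoh1 was 5994 CPM (5979 to 6009), with 822 to 14099 CPM in single cells, against 1.31 CPM in WT_P30 OHCs, where it was detected in 1 of 17. The transgene encodes Atoh1, and the counts do not separate its RNA from that of the gene on chr6:64729125-64731245. The same holds for Ikzf2, which was 408 CPM (111 to 1143) against 162 CPM (35.5 to 522). Pou4f3, the factor needed for hair cell maintenance, was detected in 1 of the 11 OHC-like cells, cell 11, at 719.8 CPM, and in all OHCs at 121 to 1139 CPM (median 626). Its level was 63.0 against 579.8 CPM, and 0.0102 CPM without cell 11, which moved its log2 ratio from −3.18 to −9.17. Gfi1 was 48.8 CPM (0 to 154, detected in 7 of 11) against 209.6 CPM (22.7 to 405), and Isl1 72.4 against 324 CPM. Rest, the repressor of neuronal genes, was 8.37 against 75.4 CPM, and 3.94 CPM without cell 11. Exons of Gfi1 and Ikzf2 overlap genes on the opposite strand.

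The regulators that were higher, besides Atoh1, included others known from developing hair cells. Insm1, a zinc finger factor of nascent OHCs, was 134 CPM (0.253 to 344) against 0.872 CPM. Hes6, a target of Atoh1, was 717 against 23.3 CPM. Srrm4, the splicing factor that regulates Rest, was 131 against 9.33 CPM, with exons overlapping Srrm4os on the opposite strand. Single OHCs moved some of these ratios further up, from 6.18 to 6.96 for Insm1 without WT_P30 OHC 6, from 3.68 to 4.57 for Srrm4 without OHC 10 and from 11.34 to 12.55 for Atoh1 without OHC 12. Cell 4 was the lowest for Insm1 and for Hes6 (0.760 CPM) and the only OHC-like cell without detectable RNA of both. Lhx3, whose exons overlap an opposite-strand gene, was 302 against 31.6 CPM. Eya1 (213 against 119.5 CPM) and Barhl1 (215 against 100.5 CPM), which act early in the hair cell lineage, were within the fold.

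**Figure D4:**
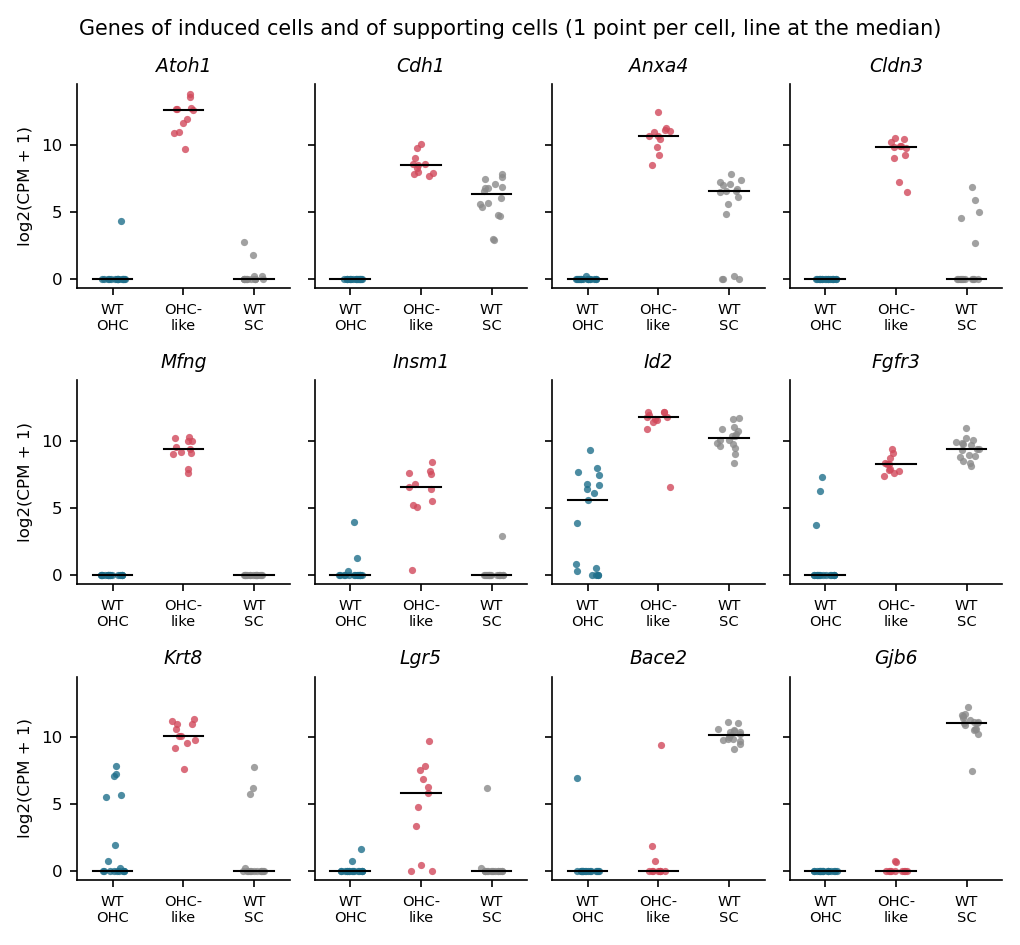
Level of 12 genes as log2(CPM + 1) in 17 WT_P30 OHCs, 11 OHC-like cells and 16 WT_P60 SCs, 1 point per cell with a line at the median. Atoh1, Cdh1, Anxa4, Cldn3, Mfng and Fgfr3 do not overlap between OHCs and OHC-like cells, and Bace2 and Gjb6 are high in the SCs but at a median of 0 in the OHC-like cells.

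Besides Atoh1 and Cdh1, the 8 genes with the widest gap between the lowest OHC-like cell and the highest OHC were Anxa4, Cldn3, Mfng, Epb41l4a, Gfra4 and Cmtm8. Anxa4, a membrane-binding annexin, was 1957 CPM (349.7 to 5568) against 0.00823 CPM, and Cldn3, a tight junction claudin, 845 CPM (85.7 to 1419.9) with no read in OHCs. Exons of both overlap genes on the opposite strand. Mfng, a Fringe enzyme that modifies Notch receptors, was 793 CPM (194 to 1237) with no read in the OHCs or in the WT_P60 SCs. Gfra4, a receptor of the GDNF family, was 400.3 CPM and likewise had none in either. Epb41l4a was 544 CPM against 0.0165 CPM, and Cmtm8 109 CPM (39.6 to 249) with none in OHCs but 156 CPM in SCs. By ratio of group levels 2 more genes entered, Cd63, a tetraspanin of late endosomes (524 against 0.0165 CPM), and Psat1, an enzyme of serine synthesis (503 CPM against no read).

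On the side of the OHCs, the widest gaps other than Slc26a5 and Myo15 were for genes outside the hair cell lists. Gm5737, a predicted gene, was 1292 CPM (13.0 to 4895) in WT_P30 OHCs and had 1 read in the OHC-like group. Cables1 (307 CPM), Atp8a2, a phospholipid flippase (231 CPM), and the predicted gene Gm5111 (62.9 CPM) had no read in any OHC-like cell. Faim2, an inhibitor of Fas-mediated cell death, was 294 CPM (103 to 1314) against 0.00929 CPM, and AA465934 269.8 against 0.288 CPM. By group ratio Osbp2, an oxysterol-binding protein (902 against 0.706 CPM), Chst2, a sulfotransferase (847 against 4.77 CPM), and Gm45716 (1227 against 4.75 CPM) also entered. The reads of Chst2 came mainly from cell 2, without which its level was 0.0596 CPM, and Osbp2 was 0.132 CPM without cell 5 and Gm45716 2.06 CPM without cell 11. Cables1 and Atp8a2 overlap genes on the opposite strand, and Gm45716 and Gm5111 overlap others on the same strand, so their counts are uncertain.

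Genes of epithelial junctions and filaments were among the higher groups. Of 34 junction genes 20 passed the filter, 10 were higher and 2 lower, with a median of 2.05. Cldn9 was 4039 CPM (657 to 7119) against 681 CPM (3.94 to 1595), and Epcam 466 against 84.7 CPM. F11r, a junction adhesion molecule, was 88.5 CPM with no read in OHCs. The 2 lower genes were Cgn, encoding cingulin (46.6 against 876 CPM), and Cldn14, a claudin required in mature OHCs (22.1 against 227 CPM, and 6.23 CPM without cell 11). Of 19 filament and contractile genes 9 passed the filter, 5 were higher and 0 lower (median 4.20). The keratins of simple epithelia Krt8 and Krt18 were 1288 against 32.4 CPM and 321 against 16.5 CPM, and Krt7 was 497 against 0.0329 CPM. WT_P60 SCs had 19.7, 4.10 and 0 CPM of Krt8, Krt18 and Krt7. Without WT_P30 OHC 16 the log2 ratio of Krt18 was 5.27 instead of 4.20, and without OHC-like cell 8 that of Krt7 was 8.15 instead of 8.91.

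Of 12 tubulin genes, 8 passed the filter, 5 were higher and 1 lower. The lower one was Tuba8 (36.9 against 371 CPM), and Tuba4a (553 against 33.7 CPM) and Tubb4b (873 against 142 CPM) were among the higher ones. The log2 ratio of Tuba4a was 4.00, and 4.99 without WT_P30 OHC 7. Tubulins are near-identical copies between which reads can be split, and the values are uncertain to that extent. Of 38 integrin and extracellular matrix genes only 7 passed the filter, and Bcam, a laminin receptor (704 CPM), and Col18a1 (84.9 CPM) were higher, each with no read in OHCs. No member of that list was lower, and Bcam and Col18a1 entered through the OHC-like cells alone.

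Genes that earlier studies had assigned to neonatal hair cell types were listed from the study's own supplement by symbol. Of 53 neonatal OHC genes 32 passed the filter, 14 were higher and 1 lower (median 1.62). The study selected these 53 as enriched in neonatal but not in adult OHCs, so a split towards higher is partly fixed by that choice. Fzd9, a Wnt receptor (623 CPM, detected in 10 of 11), and Neurod6, a neurogenic factor (443 CPM, 10 of 11), had no read in WT_P30 OHCs. Ldhb was 2634 against 352 CPM. Smoc2 was the lower one (6.80 against 134 CPM, and 1.80 CPM without cell 10). Of 49 neonatal inner hair cell genes 15 passed, 9 were lower and 0 higher, and the median was −3.29, or −5.06 without cell 11. Otof, Chst2, Kcnj13 and Cgn are among the 9, together with Paqr9 (0.0186 against 200.3 CPM). Of 26 neonatal utricle genes 5 passed and 4 were higher, such as 1700001L19Rik (148 CPM, 21.6 to 364, against 0.444 CPM). The other 21 did not pass, and the 26 summed to a median of only 79.2 CPM in WT_P30 OHCs. A split towards higher is thus partly fixed by the filter here too.

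Genes of SCs behaved in different ways. Of 26 SC regulators 14 passed the filter, 9 were higher than in WT_P30 OHCs and 0 lower (median 3.53). Fgfr3, the gene whose promoter drives the Cre, was 317 CPM (159.7 to 655) in OHC-like cells against 11.8 CPM in OHCs, with no overlap, and 742 CPM in WT_P60 SCs. Its log2 ratio of 4.64 was 5.95 without WT_P30 OHC 13. The inhibitors of differentiation Id1, Id2 and Id3, which antagonise basic helix-loop-helix factors such as Atoh1, were 295, 3384 and 537 CPM. In OHCs they were 2.09, 99.0 and 19.6 CPM, and in SCs 74.2, 1382 and 198 CPM. For each of the 3, 10 of 11 OHC-like cells lay above every OHC, cell 4, described below, being the exception. Without WT_P30 OHC 8 the log2 ratio of Id1 was 8.21 instead of 6.58, and without OHC 11 that of Id3 5.35 instead of 4.71. The Notch effector Hes1 was 48.9 CPM with no read in OHCs (SCs 82.2 CPM), and Heyl 383 against 21.8 CPM with none in SCs.

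Genes of SC function, in contrast, were mostly too low to pass the filter. Of 22 in the list 3 passed it and 1 was higher. The connexin genes Gjb2 and Gjb6 of the SC gap junctions were 0.167 and 0.149 CPM in OHC-like cells against 682 and 2204 CPM in SCs, and the potassium channel Kcnj10 was 0 against 417 CPM. Ceacam16, a tectorial membrane protein, was 57.2 CPM, near the 23.0 CPM of OHCs and below the 1832 CPM of SCs. The factors Sox2 and Sox9 were detected in 4 of the 11 OHC-like cells each, at group levels of 8.11 and 43.3 CPM, and Sox10 was 0.130 CPM. Lgr5, a Wnt target of neonatal SCs, was the higher gene, at 115 CPM (detected in 8 of 11) against 0.181 CPM in OHCs and 4.41 CPM in SCs, and 66.4 CPM without cell 1. Fbxo2 was 5166 against 4479 CPM, and 10623 CPM in SCs.

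Some groups that report on the state of a cell also stood higher. Of 18 immediate early and heat shock genes 12 passed the filter, 7 were higher and 0 lower (median 3.20). Egr1 was 692 against 33.6 CPM and Fos 322 against 17.8 CPM, while SCs had 1346 and 2924 CPM. These genes also answer to dissociation of the tissue. Their summed level was 4025 to 10757 CPM in OHC-like cells, 631 to 5278 in OHCs and 4072 to 26282 in SCs, and the part of dissociation was not tested. Without OHC 9 the log2 ratio of Egr1 was 5.53 instead of 4.32, without OHC 13 4.91, and without OHC-like cell 7 3.45. Without OHC 13 that of Fos was 5.23 instead of 4.11, and without OHC 4 4.74. Of 16 antigen presentation and interferon genes 5 passed and 4 were higher, among them B2m (98.9 against 0.132 CPM, and 60.9 CPM without cell 10). Of the 4, H2-D1, which shares sequence with H2-K1, came within the fold without cell 10 (log2 ratio 1.81). Of 11 cell cycle genes 3 passed, and Mcm2, a replication licensing factor, was higher at 141 CPM with no read in OHCs. Mki67 and Top2a did not pass the filter.

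**Figure D5:**
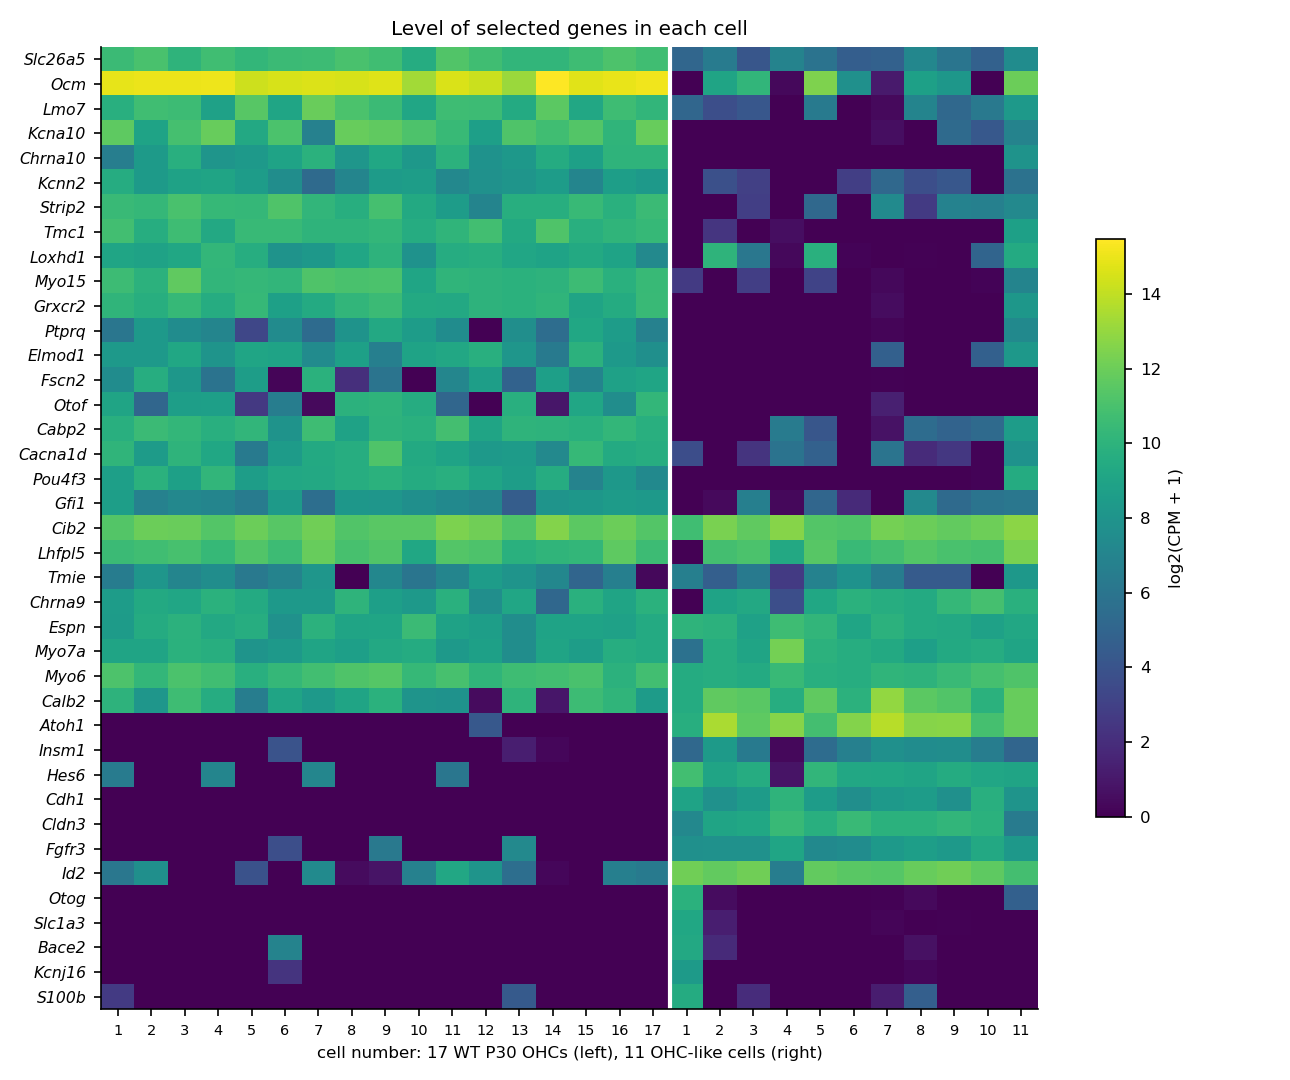
Level of 39 genes in each of 17 WT_P30 OHCs (left) and 11 OHC-like cells (right), as log2(CPM + 1) on a colour scale. Column 11 on the right is filled for Kcna10, Chrna10, Tmc1, Grxcr2, Ptprq and Pou4f3, which are dark in most other OHC-like cells, and column 1 on the right is filled for Otog, Slc1a3, Bace2, Kcnj16 and S100b.

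The OHC-like cells were not alike. Cells 11, 1 and 4 are singled out here after their values had been seen. Across the hair cell lists (mature OHC function, MET, stereocilia, potassium channels, ribbon synapse and regulators) 36 genes were lower in OHC-like cells. They were chosen for being lower in these same cells, so low numbers in OHC-like cells and high numbers in OHCs are partly built in. Cell 11 had 30 of these 36 detected and was the highest of the 11 cells for 20 of them. The other 10 cells had 5 to 17 detected, WT_P30 OHCs 29 to 36 (median 33) and WT_P60 SCs 4 to 9. Cell 11 was thus within the range of the OHCs by number of these 36 genes detected, while its Slc26a5 and Sri lay below every OHC. Without cell 11 the number of lower genes over the whole table was 424 instead of 391. It was 382 to 399 with each other OHC-like cell left out in turn.

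Cell 1, the only OHC-like cell of series A, had 10 of the 22 SC function genes detected, against 1 to 9 in the other 10 OHC-like cells, 1 to 4 in OHCs and 9 to 12 in SCs. It had 926 CPM of Otog, 650.0 CPM of Bace2, 724 CPM of S100b, 348 CPM of Kcnj16 and 6481 CPM of Sparc, genes with a median of 0 to 0.339 CPM in the OHC-like group. It had no read of Ocm, Lhfpl5 or Chrna9 and the lowest Myo7a of the group (52.5 CPM), and still 32.8 CPM of Slc26a5. Cell 4 had the fewest detected genes of the group and 5 of the 36 hair cell genes, with the highest Myo7a (4873 CPM). Its mitochondrial share was 23.8% of counts (2.24 to 8.49% in the other 10 cells) and its 10 most abundant genes held 36.0% of counts (6.47 to 11.2% in the others). The part of RNA quality in its values was not tested. Without cell 4, 1882 genes were higher and 392 lower, and without cell 1, 1809 and 399, against 1707 and 391 with all cells. Leaving out any single OHC-like cell raised the number of higher genes, to between 1778 and 1882. The genes passing the filter rose as well, from 7860 to between 8099 and 8333. The filter asks for detection in a set share of cells, which takes fewer cells in a smaller group. The rise is thus partly built in, whichever OHC-like cell is left out.

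Of 139 listed or named genes past the fold, 65 had a ratio that moved by more than 1.5 times when any 1 of the 28 cells was left out, 43 of them through an OHC-like cell and 21 through cell 11. Of them, 3 no longer passed the fold (Erc2, H2-D1 and Itpr1, the last of which had a log2 ratio of 1.76 without cell 1) and 0 changed direction.

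The markers of other cell types were summed in each cell. The 5 inner hair cell markers summed to 0 to 18.6 CPM in OHC-like cells (median 0.113) and 0 to 1313 CPM in WT_P30 OHCs (median 406), the latter through Otof, while Slc17a8, which defines inner hair cells, was detected in 0 of 11 and 2 of 17 cells. The 7 macrophage markers reached at most 0.288 CPM in OHC-like cells and 94.0 CPM in OHCs. The 6 endothelial markers reached 37.0 and 162 CPM, the 6 fibroblast markers 276 and 62.9 CPM, and the 5 stria markers 23.5 and 6.67 CPM. The 5 blood markers had a median of 0 in both groups and reached 2921 CPM in OHC-like cell 2. The 6 neuronal markers were 0 to 487 CPM (median 150.0) and 0.606 to 868 CPM (median 238). The 4 Schwann cell markers were 0 to 186 CPM (median 83.7) in OHC-like cells and 0 to 68.4 CPM (median 0) in OHCs. Mbp made up that difference, at 74.0 CPM in 9 of 11 cells against no read, and 1 of the 4 was at 0 throughout the OHC-like cells. The part of such RNA in the results above was not tested. The 6 OHC markers summed to 13698 to 51382 CPM in WT_P30 OHCs, to 493 to 6640.2 CPM in OHC-like cells and to 0 to 153 CPM in SCs, and the 7 SC markers to 0 to 454, 161 to 1279.8 and 2088 to 12488 CPM. Ikzf2, which the transgene encodes, is 1 of the 6 OHC markers. Slc26a5, used to define the OHC-like cells, is another. In the remaining Tdtomato+ cells of the same mice the 6 markers summed to 286 to 7922 CPM in the 16 nascent HCs and to 122 to 2231 CPM in the 15 SCs failing to become HCs, so the sum does not set the OHC-like cells apart from these.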

How the data were processed

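Single cells were prepared with a Smart-Seq HT kit, without molecular identifiers, from cells picked by hand. Per the submitters' processing notes and the study's methods, read quality was read out in FastQC 0.11.9, Trimmomatic 0.39 served for trimming, HISAT2 2.1.0 aligned the reads to mm10 (GRCm38), and the authors deposited raw counts of reads per gene from HTSeq 0.10.0, not normalized or pooled. Abundances made with StringTie 1.3.5 were not used. The strand setting and annotation release are not given in the sources used here. The WPRE row, a viral element with 0.0254% of counts, was left out, and all 75 columns matched a sample of the series.

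Counts were summed over the cells of a group and divided by the sum of their totals times TMM factors (edgeR 4.0.16 in R 4.3.3, over all 75 cells). Ratios used a pseudocount of 1.00 CPM. A fold against a group at or below 3 counts per cell of median size (0.318 CPM in OHC-like cells, 0.436 CPM in WT_P30 OHCs) was computed against that floor and is given as "at least". Intervals were exact Poisson intervals at the 95% level and cover counting error only, and the floors likewise. No pair of cells had identical counts. No doublet caller was run, since cells were picked singly. With no mouse named, cells were not taken as replicates and no test was made. Coordinates are from GENCODE M21, in which 7773 of the 7860 genes tested were found.

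The members and the 32 gene lists were chosen with earlier results of these data known. Named genes were Slc26a5, Kcna10 and Cdh1, members of the lists, in each direction the 8 genes with the widest gap between cells of the groups and the 8 protein-coding genes with the largest ratio among those in every cell of the higher group, and up to 8 genes kept at OHC levels. Alternatives were other scalings (total count, TMMwsp, DESeq2 1.42.0 size factors), the mean or median over cells, other pseudocounts, filters and thresholds, thinning, 1 library series at a time, and leaving out each cell. Values of some listed genes are not reported here. The scripts were tested on simulated data.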

Additional observations from a re-analysis of the deposited data

How the results depend on the processing

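Genes higher in OHC-like cells numbered 1707. The number was 4025 with the median of cells in place of the sum, 978 with a pseudocount of 10 CPM, 3530 with no filter on low levels, 3255 with a log2 threshold of 1 and 1004 with one of 3. Genes lower numbered 391, and the number was 1622 with no filter, 814 and 242 with log2 thresholds of 1 and 3, and 904 with the cell of series A alone. Higher and lower genes numbered 1364 and 485 with total counts, 1350 and 484 with TMMwsp, and 1193 and 573 with DESeq2 size factors. The log2 ratio of Kcna10 was −11.11 with the median of cells and −10.97 with series A or series B alone. That of Cdh1 was 11.89 with a pseudocount of 0.1 CPM and 5.28 with 10 CPM. The filter, thresholds and pseudocounts change these values by their own construction, and for the others the cause was not tested. Leaving out each of the 28 cells in turn gave 1684 to 1882 higher and 382 to 424 lower genes, and log2 ratios of −4.74 to −4.40 for Slc26a5, −7.65 to −6.49 for Kcna10 and 8.39 to 8.69 for Cdh1. For the 22 named genes past the fold, 0 of 880 recomputed ratios changed sign or came within the threshold. Of 1134 recomputed list medians 26 changed sign, among them those of hair cell regulators (−0.11 with DESeq2 size factors) and of ribosomal proteins. No paired analysis was possible because the replicate numbers of single cells name no shared mouse and no result comes from a test. Each group being 1 sample, the spread between mice is unknown, and a gene at 0 in a cell is limited by the depth of that cell.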
